A study of Mus musculus with 11 samples.

Results

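The mRNA of 9 receptor chains for interferons and interleukins was followed in BV2 cells, an immortalized mouse microglial line, treated with fragments of human apolipoprotein E. The chains are Ifnar1, Ifnar2, Ifngr1, Ifngr2, Il10ra, Il10rb, Il6st, Il4ra and Il13ra1. They were taken by symbol from the 36529 genes listed in the count tables, and all 9 were found there and passed the filter on low counts in every comparison. RNA was sequenced from 11 samples in 4 groups. In one experiment, 3 samples received nApoE4, the amino-terminal fragment of ApoE4 that spans residues 1 to 151, at 25 μg/ml for 5 h, and 3 samples labelled untreated served as their controls. In another experiment, 2 samples received the matching fragment of ApoE3, nApoE3, at the same dose and time, and 3 further samples labelled untreated served as controls. The fragments differ by a single amino acid. Every group shares the C57BL/6 cell line and the RPMI medium with serum. The labels name a PBS vehicle, whereas the study's methods describe conditioned medium for untreated cells, so what the controls were given is unclear. Fragment and experiment cannot be told apart in this design, and nothing in the labels says whether replicates came from separate cultures, so the p-values measure only the spread between these samples.

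Cytokine receptors of this kind have no enzyme of their own. Each ligand joins different chains at the cell surface, the JAK kinases bound to the chains become active, and STAT factors carry the signal to the nucleus. IFNAR1 and IFNAR2 together bind the type I interferons, and IFNGR1 and IFNGR2 bind interferon gamma. IL10RA is the private chain for IL-10, whereas IL10RB is shared with the receptors for IL-22 and the type III interferons. IL6ST is the signaling chain shared by the IL-6 family, IL4RA binds IL-4, and IL13RA1 joins IL4RA to receive IL-13. In microglia, interferon receptors are known for antiviral and antigen presentation programs, and the IL-10 and IL-4 receptors for restraint of inflammation and tissue repair.

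The samples held 39732710 to 44162511 counts in the nApoE4 experiment and 55809688 to 69768666 in the nApoE3 experiment, so 3 counts correspond to 0.0425 to 0.0756 CPM, the counts of a gene scaled to library size. Across genes, replicates of a group correlated at 0.995 to 0.999. The microglia and macrophage markers summed to 3581 to 3949 CPM in the controls and 3398 to 3462 CPM with nApoE4. In the nApoE3 experiment they summed to 2608 to 2713 CPM in the controls and 3047 to 3050 CPM with the fragment. This sum was thus lower with nApoE4 and higher with nApoE3. Of these 14 markers, P2ry12 was at 0 counts in every sample and Sall1 did not pass 3 counts in any. Both are defining markers of microglia in the brain. Whether another gene overlaps them was not examined, so low counts here do not establish that the transcripts are absent. Markers of neurons summed to at most 0.598 CPM, those of lymphocytes to 0.706 to 1.81 CPM and those of oligodendrocytes to 9.33 to 14.3 CPM in the nApoE4 experiment and 22.2 to 25.5 CPM in the nApoE3 experiment. Other sums that moved with treatment were those of astrocytes, from 1.20 to 1.39 up to 6.02 to 7.03 CPM with nApoE4 and from 1.07 to 1.30 up to 4.37 to 4.53 CPM with nApoE3, and those of fibroblasts and endothelium, from 2.08 to 2.79 up to 4.13 to 5.17 CPM and from 1.83 to 2.11 up to 3.30 to 4.41 CPM. Among astrocyte markers this was mostly Slc1a2, from a mean of 1.00 to 6.43 CPM with nApoE4 and 1.06 to 4.37 CPM with nApoE3. Gfap, Aqp4 and Gja1 held at most 4 counts, and Aldh1l1 went from 0.28 to 0.12 CPM with nApoE4. Pdgfrb rose most among the fibroblast and endothelial markers, from 1.22 to 3.28 CPM and from 0.754 to 2.06 CPM. The part of these sums in the results was not tested.

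Of the 9 genes, 4 lie in a row on the plus strand of chromosome 16 within 191 kb (GRCm38.p6, chr16:91372783-91564007), in the order Ifnar2, Il10rb, Ifnar1 and Ifngr2. The end of Ifnar2 and the start of Il10rb are 567 bases apart. The other 5 are on separate chromosomes: Ifngr1 at chr10:19591949-19610229, Il10ra at chr9:45253837-45269149 on the minus strand, Il6st at chr13:112464070-112506860, Il4ra at chr7:125552271-125579474 and Il13ra1 at chrX:36112108-36171262. A readthrough gene, Gm21970, shares 9.46% of the exon bases of Ifnar2 and 14.9% of those of Il10rb, and Gm44876 lies opposite to 9.51% of the exon bases of Il4ra. How reads in such shared stretches were assigned is not given in the sources used here. For the other 6 genes, no exon base was shared with another gene of the GENCODE annotation.

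Promoters were read because the members next to each other on chromosome 16 moved the same way with both fragments. Of the 9 genes, 7 had a promoter in the RefSeq table for GRCm38.p6, which runs from 250 bases before to 50 bases after the annotated start. These were searched on both strands for the STAT site GAS (TTCNNNGAA), the interferon element core (GAAA, any 2 bases, GAAA), the AP-1 site (TGANTCA) and the NF-kB site. The GAS letters were found in Ifnar2 and Ifnar1 and in 8.3% of all 32851 promoters, and the NF-kB letters were found in Ifngr2 and Il4ra and in 4.51% of all promoters. No interferon element core and no AP-1 site lay in the 7 windows, against 3.44% and 7.81% of all promoters. No 2 of these motifs overlapped in the stretches shown. The stretches that hold the matches are printed from the plus strand, which is the gene's strand, with the matched letters in capitals. Positions count from the start in the promoter table, taken as 0, which for Ifnar1 lies 183 bases inside the gene span (91485215 against 91485032 on chromosome 16) and for the other 6 is the start of the span.
Ifnar2, GAS at -214 to -206 from the start, chr16:91372533-91372617: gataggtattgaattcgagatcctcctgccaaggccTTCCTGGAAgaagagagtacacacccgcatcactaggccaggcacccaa
Ifnar1, GAS at -5 to 3, chr16:91485200-91485228: ggcgggggcgTTCACGGAAggggcggggc
Ifngr2, NF-kB at -75 to -66, read on the minus strand, chr16:91546944-91547033: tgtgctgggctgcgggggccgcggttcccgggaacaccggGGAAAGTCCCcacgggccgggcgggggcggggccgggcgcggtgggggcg
Il4ra, NF-kB at 20 to 29, read on the minus strand, chr7:125552281-125552310: ccttctcgcaGGAAAGCCCCgcgcggcgcg
A match describes the letters only. The 7 promoters held 57.0 to 74.3% G and C, against a median of 52.7% over all promoters.

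After 5 h with nApoE4, 6 of the 9 chains were higher and 1 was lower than in the controls at an adjusted p-value under 0.05, and 2 did not pass the test. Over all 14240 genes tested, 57.2% passed the same test, 28.6% higher and 28.6% lower. With nApoE3, 7 chains were higher and 2 were lower, where 67.7% of 14817 genes passed, 33.1% higher and 34.6% lower. The median log2 fold change of the chains was 0.30 with nApoE4 and 0.42 with nApoE3, whereas the median over all genes tested was at 0.00 for both. None of the chains changed by more than 2-fold, whereas 10.2% of all genes were called higher and 7.46% lower past 2-fold with nApoE4, and 9.6% and 6.57% with nApoE3. Treated and control samples did not overlap for 7 of the 9 chains with nApoE4, a pattern shown by 63.6% of all genes tested, and for 9 of 9 with nApoE3, where 77.6% of all genes showed it. In a culture measured in bulk, more cells with a transcript and more transcript per cell cannot be told apart. Both controls are needed to read these values, because 5 of the 9 chains differed between the untreated samples of the experiments.

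**Figure D1:**
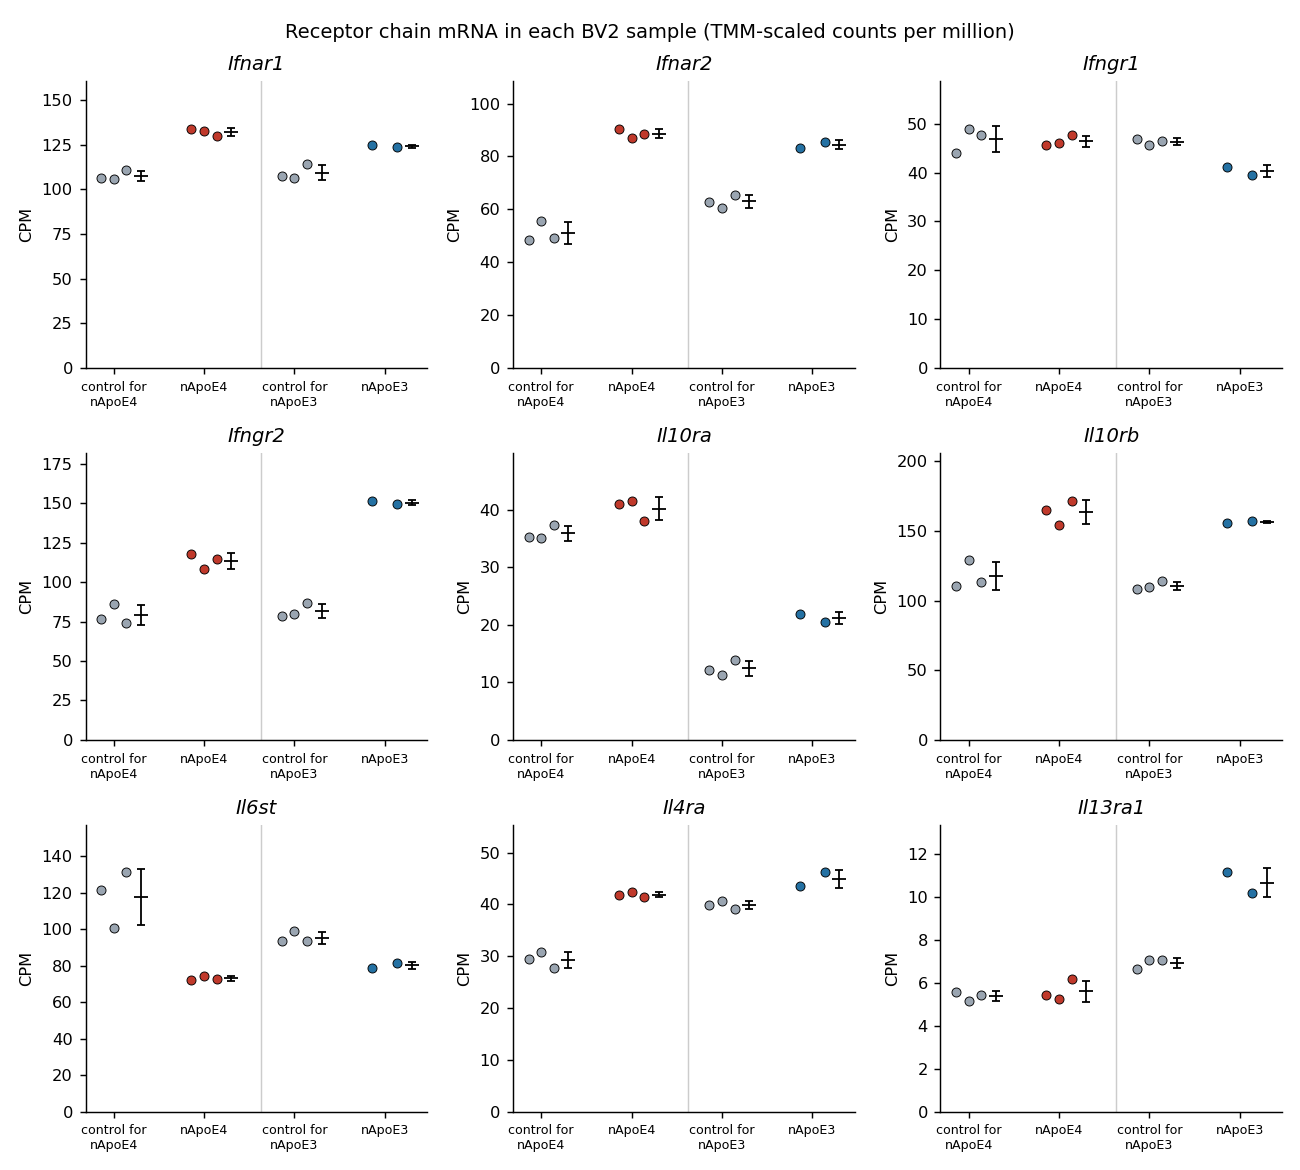
Level of each receptor chain in every sample, in CPM scaled by the TMM method (y axis from 0), for controls of nApoE4 (3 samples), nApoE4 (3), controls of nApoE3 (3) and nApoE3 (2). Points are samples, the horizontal mark with bars is the mean with its SD, and the treated samples of Ifnar2, Ifngr2 and Il10rb lie above their controls in both experiments while those of Il6st lie below.

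The chains of the type I interferon receptor both rose with both fragments. Ifnar2, the chain that binds interferon with high affinity, was at 48.3, 55.7 and 49.1 CPM in the controls and at 90.4, 86.8 and 88.6 CPM with nApoE4. The lowest treated sample was well above the highest control. This is 1.74-fold (log2 fold change 0.80, with a standard error, SE, of 0.066, adjusted p = 5.20e-06), the largest response to nApoE4 among the 9. With nApoE3, Ifnar2 went from 62.9, 60.6 and 65.4 CPM to 83.3 and 85.6 CPM (log2 fold change 0.42, SE 0.035, adjusted p = 3.91e-07). The response to nApoE4 was larger than that to nApoE3 by 0.37 on the log2 scale (SE 0.083, adjusted p = 0.00459). The controls also differed, being lower by a log2 difference of -0.29 in the nApoE4 experiment (adjusted p = 0.00379), so that the levels reached with the fragments were close, at 88.6 ± 1.78 CPM (SD, n = 3) and 84.4 ± 1.60 CPM (SD, n = 2). A lncRNA, Gm36587, overlaps 19.9% of the span of Ifnar2 and held 30 to 95 counts, against at least 2055 counts on Ifnar2 itself.

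Ifnar1, the partner chain that carries the kinase TYK2, moved less. Its controls were at 106, 105 and 111 CPM and its nApoE4 samples at 134, 133 and 130 CPM (log2 fold change 0.30, SE 0.054, adjusted p = 0.00101). With nApoE3 it went from 107, 106 and 114 CPM to 125 and 123 CPM (log2 fold change 0.18, SE 0.033, adjusted p = 3.95e-04). The groups were separate in both experiments. The nApoE3 call rests on the scaling, since with total counts in place of the TMM method (an alternative added after the data were seen) the log2 fold change was 0.05 (adjusted p = 0.216). The difference between the responses was 0.11, with a 95% interval from -0.03 to 0.25 (adjusted p = 0.217), and the controls of the experiments did not differ past the test either (adjusted p = 0.926).

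The receptor for interferon gamma moved in one chain more than in the other. Ifngr2, the chain that brings in JAK2, was at 76.3, 86.2 and 74.3 CPM in the controls and 118, 108 and 115 CPM with nApoE4 (log2 fold change 0.53, SE 0.070, adjusted p = 1.39e-04). With nApoE3 it rose from 78.7, 79.9 and 86.4 CPM to 152 and 149 CPM, which is 1.83-fold (log2 fold change 0.88, SE 0.037, adjusted p = 5.05e-10), the largest nApoE3 response among the 9. The controls of both experiments lay at nearly one level, with a log2 difference of -0.03 (95% interval -0.19 to 0.12), and the nApoE4 response was smaller by a log2 difference of -0.36 (SE 0.090, adjusted p = 0.0100).

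Ifngr1, the chain that binds interferon gamma, did not follow. Its controls were at 43.9, 48.9 and 47.6 CPM and its nApoE4 samples between 45.5 and 47.6 CPM. All 3 treated samples lay within the range of the controls, and the log2 fold change was -0.01 with a 95% interval from -0.14 to 0.13 (adjusted p = 0.908). With nApoE3 Ifngr1 fell from 46.9, 45.6 and 46.5 CPM to 41.1 and 39.4 CPM (log2 fold change -0.21, SE 0.034, adjusted p = 1.65e-04). The difference between the responses, 0.19, did not pass the test (adjusted p = 0.0715). It passed without replicate 2 of the nApoE4 controls (adjusted p = 0.0152), when genes under 10 counts in any sample were dropped (adjusted p = 0.0415) and with total counts (adjusted p = 0.0159).

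Il10ra was the chain with the largest gap between the experiments. It was at 35.2, 35.1 and 37.3 CPM in the controls of nApoE4 and at 12.1, 11.2 and 13.9 CPM in the controls of nApoE3, which is 2.92-fold higher, a log2 difference of 1.55 (SE 0.078, adjusted p = 1.57e-06). It was the only one of the 9 past 2-fold between the controls, where 12.5% of 14249 genes were higher past 2-fold and 5.4% lower. With nApoE3, Il10ra rose to 21.8 and 20.5 CPM, which is 1.70-fold (log2 fold change 0.77, SE 0.072, adjusted p = 1.13e-06). With nApoE4 it was at 41.0, 41.5 and 37.9 CPM (log2 fold change 0.17, SE 0.061, adjusted p = 0.0398). The nApoE4 samples lay above their controls by less than 1 CPM at the nearest pair. This call was lost without replicate 1 or 2 of the controls and without replicate 1 or 2 of nApoE4 (adjusted p = 0.0535 to 0.145), with DESeq2 (adjusted p = 0.0868), without a filter (adjusted p = 0.113), with all 11 samples in one fit (adjusted p = 0.0544) and with total counts (adjusted p = 0.344). The responses differed by -0.61 on the log2 scale (SE 0.11, adjusted p = 8.20e-04), and the nApoE3 samples with their higher response still lay below every sample of the nApoE4 experiment. The sum of microglia and macrophage markers was also higher in the nApoE4 controls, at 3581 to 3949 CPM, than in the nApoE3 controls, at 2608 to 2713 CPM, and its part in the gap was not tested. Not every marker followed the sum. In the nApoE4 and nApoE3 controls, Adgre1 was at 240 and 288 CPM and Tmem119 at 2.81 and 8.56 CPM.

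Il10rb, the shared partner, rose with both fragments. It was at 111, 130 and 113 CPM in the controls and 165, 155 and 172 CPM with nApoE4 (log2 fold change 0.48, SE 0.075, adjusted p = 4.03e-04). With nApoE3 it went from 108, 110 and 114 CPM to 156 and 157 CPM (log2 fold change 0.49, SE 0.028, adjusted p = 8.34e-09). Treated samples were above the controls throughout, and the difference between the responses had a 95% interval from -0.22 to 0.17 (adjusted p = 0.880).

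Il6st was the only one of the 9 chains that fell with both fragments. Its controls were at 121, 101 and 131 CPM, the widest spread of the 9 in absolute level, and its nApoE4 samples at 72.0, 74.5 and 72.9 CPM. The log2 fold change was -0.68 (SE 0.092, adjusted p = 1.54e-04), a loss of 37.6%. With nApoE3 it fell from 93.5, 99.0 and 93.5 CPM to 78.9 and 81.6 CPM (log2 fold change -0.25, SE 0.034, adjusted p = 2.53e-05). The fall with nApoE4 was deeper by a log2 difference of -0.44 (SE 0.11, adjusted p = 0.0110), a call lost without replicate 2 of nApoE3 (adjusted p = 0.0507). The nApoE4 controls stood higher than the nApoE3 controls by 0.32 (adjusted p = 0.0134), and that call was lost without replicate 1 of either control group (adjusted p = 0.0507 and 0.0547).

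Il4ra rose and its partner Il13ra1 behaved differently with the 2 fragments. Il4ra was at 29.5, 30.8 and 27.7 CPM in the controls and 41.8, 42.4 and 41.4 CPM with nApoE4 (log2 fold change 0.52, SE 0.060, adjusted p = 5.40e-05). With nApoE3 it moved from 39.9, 40.7 and 39.2 CPM to 43.6 and 46.2 CPM (log2 fold change 0.16, SE 0.037, adjusted p = 0.00178), and with total counts this was 0.03 (adjusted p = 0.489). The nApoE4 response was larger by 0.34 (SE 0.072, adjusted p = 0.00303). The nApoE4 controls started lower, by a log2 difference of -0.43 (SE 0.052, adjusted p = 1.44e-04), so the treated groups ended at 41.8 ± 0.48 and 44.9 ± 1.81 CPM (SD, n = 3 and 2).

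Il13ra1 was the lowest of the 9 chains. It was at 5.57, 5.13 and 5.44 CPM in the controls and 5.41, 5.22 and 6.15 CPM with nApoE4, and the groups overlapped. The log2 fold change of 0.06 had a 95% interval from -0.17 to 0.30 (adjusted p = 0.646). With nApoE3 it rose from 6.64, 7.04 and 7.04 CPM to 11.1 and 10.2 CPM, which is 1.54-fold (log2 fold change 0.62, SE 0.069, adjusted p = 5.43e-06). The responses differed by -0.57 on the log2 scale (SE 0.12, adjusted p = 0.00325), and the nApoE4 controls were lower than the nApoE3 controls by a log2 difference of -0.34 (adjusted p = 0.00447). The lncRNA Gm42406 overlaps 56.2% of the span of Il13ra1 and held 3 to 13 counts, against 217 to 647 counts on Il13ra1.

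Over the 9 chains, the test of the difference between the responses called 6, with 2 larger with nApoE4 (Ifnar2 and Il4ra) and 4 smaller or more negative (Ifngr2, Il10ra, Il6st and Il13ra1). Over all 15287 genes tested it called 28.3%, of which 14.4% were higher and 13.9% lower. Between the controls, 5 of 9 chains passed, 2 higher and 3 lower, where 69.3% of 14249 genes passed, 34.9% higher and 34.4% lower. The median log2 fold change of all genes moved from 0.00 to -0.09 with nApoE4 and to -0.13 with nApoE3 when total counts replaced the TMM method, and the share of called genes that were higher went from 49.9 to 39.9% and from 48.9 to 34.6%. Replicate 2 of the nApoE4 controls was the highest of the 3 in Ifnar2, Ifngr1, Ifngr2, Il10rb and Il4ra and the lowest in Il6st. Without it, 6 chains were called with nApoE4, 7 for the difference and 5 between the controls. With total counts 6 chains were called with nApoE4, 7 with nApoE3 and 7 for the difference.

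**Figure D2:**
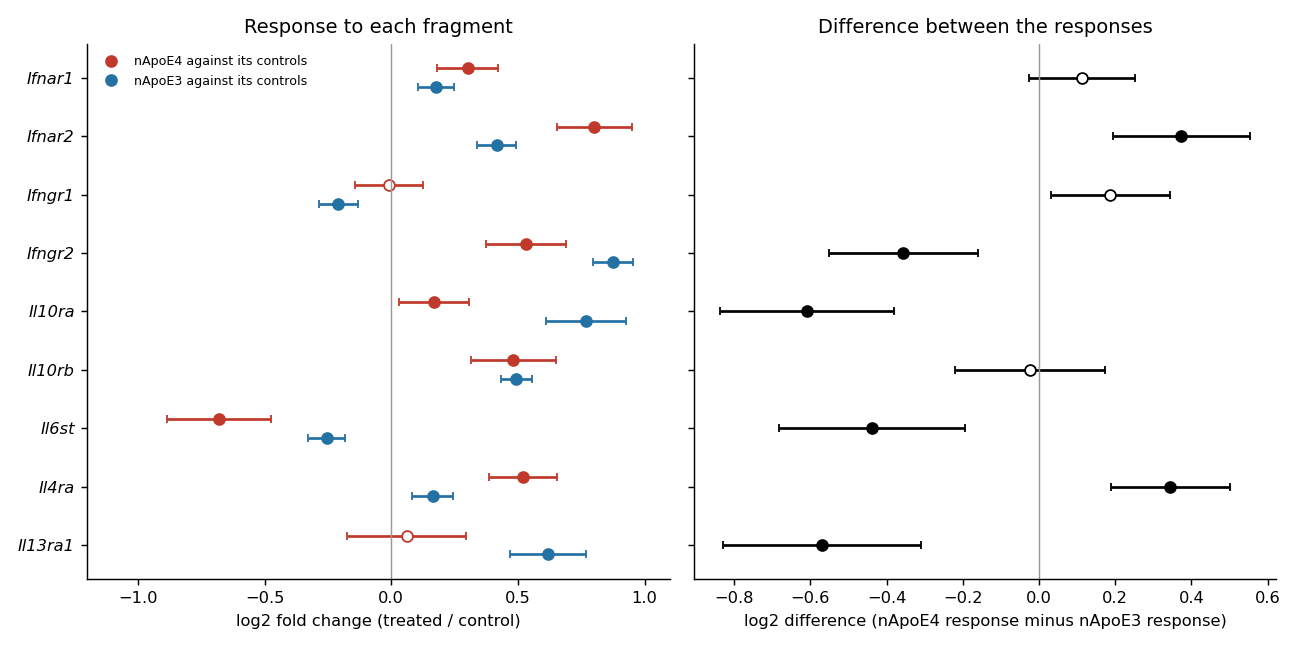
Left, log2 fold change of each chain against its own controls with its 95% interval (x axis), for nApoE4 and nApoE3. Right, the log2 difference between the responses with its 95% interval. Filled points passed an adjusted p-value under 0.05 and open points did not. Ifngr1 and Il13ra1 are open for nApoE4, and Ifnar1, Ifngr1 and Il10rb are open for the difference.

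Since a receptor needs its chains together, the ratio of partner chains was taken within each sample, on counts per kilobase of exon. This ratio does not depend on how libraries are scaled. It was compared by a two-sided exact permutation test, which cannot go below p = 0.1 with 3 samples against 3 or p = 0.2 with 2 against 3, and all 8 comparisons gave the smallest p they allow, with an adjusted p of 0.2 over the 8. The values are therefore described.

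For the type I interferon receptor, the log2 ratio of Ifnar1 to Ifnar2 was 0.31, 0.09 and 0.34 in the controls and -0.27, -0.22 and -0.28 with nApoE4. All 3 treated samples lay below the controls. The sign of the ratio depends on the length used, since with the longest transcript Ifnar1 stayed above Ifnar2 in every group, at 33.8 against 29.1 CPM per kilobase with nApoE4. In the nApoE3 experiment the log2 ratio went from -0.07, -0.03 and -0.03 to -0.26 and -0.31. For the interferon gamma receptor, the log2 ratio of Ifngr1 to Ifngr2 went from -0.39, -0.41 and -0.24 to -0.97, -0.83 and -0.87 with nApoE4. With nApoE3 it went from -0.34, -0.41 and -0.49 to -1.48 and -1.52, the largest shift of the 8.

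The other receptors moved in opposite directions with the fragments. The log2 ratio of Il10ra to Il10rb was -1.53, -1.76 and -1.48 in the controls and -1.89, -1.77 and -2.06 with nApoE4, with 1 treated sample next to the lowest control. In the nApoE3 experiment it was -3.04, -3.17 and -2.91 in the controls and -2.71 and -2.82 with the fragment. The log2 ratio of Il4ra to Il13ra1 rose from 1.71, 1.89 and 1.65 to 2.26, 2.33 and 2.06 with nApoE4 and was 1.89, 1.84 and 1.78 against 1.28 and 1.49 with nApoE3. Treated and control samples did not overlap in any of these 8 comparisons, in data where 63.6% of single genes with nApoE4 and 77.6% with nApoE3 did not overlap either. Another transcript length shifts every sample of a pair alike and leaves these changes as they are.

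**Figure D3:**
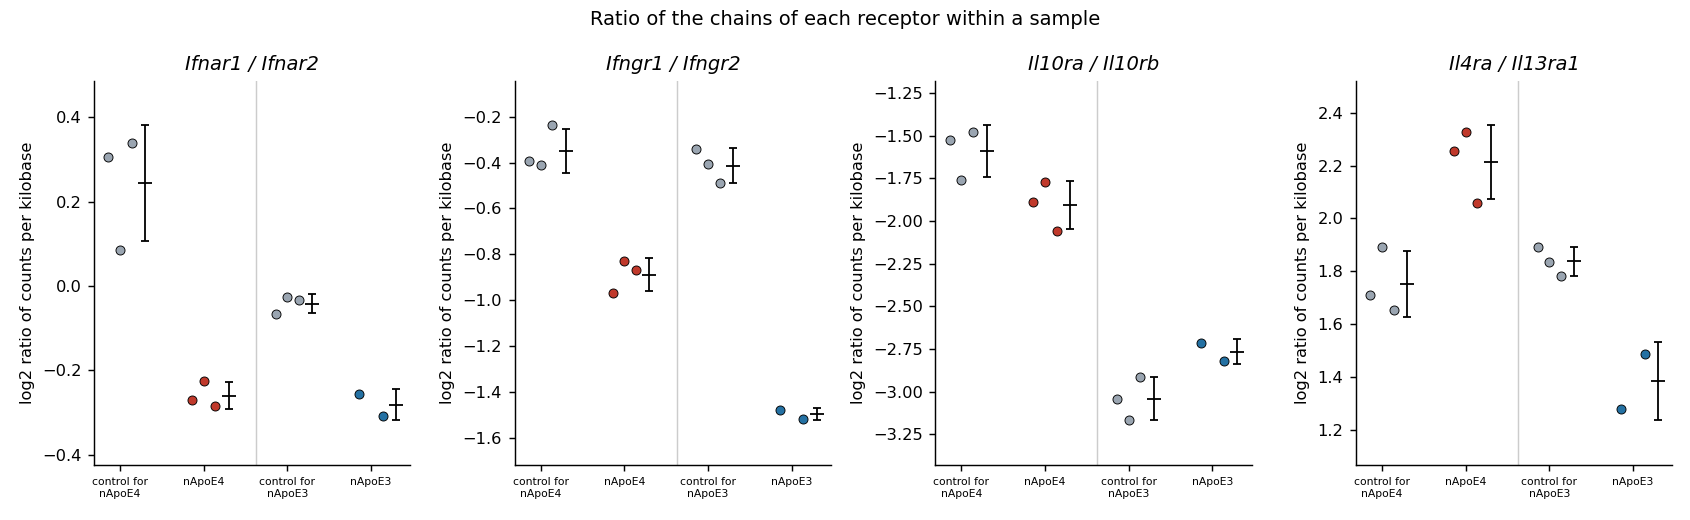
Log2 ratio of counts per kilobase of the partner chains in each sample (y axis, a different range in each panel), with the mean and SD beside the points of a group. The Ifnar1 to Ifnar2 and Ifngr1 to Ifngr2 ratios are lower in treated samples of both experiments, and the Il10ra to Il10rb and Il4ra to Il13ra1 ratios move in opposite directions in the experiments.

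Levels of different chains were compared per kilobase of exon. Il10rb was first and Il13ra1 last in every group, with either length. Places between them depend on the length, and those below use all exon bases of a gene. In the nApoE4 controls the order was Il10rb at 30.9 ± 2.70 CPM per kilobase (SD, n = 3), Ifngr2 at 21.0 ± 1.69, Ifnar1 at 18.1 ± 0.47, Ifngr1 at 16.4 ± 0.92, Ifnar2 at 15.3 ± 1.23, Il6st at 10.6 ± 1.40, Il10ra at 10.2 ± 0.35, Il4ra at 4.88 ± 0.26 and Il13ra1 at 1.45 ± 0.061. Ifngr1 and Ifnar2, and Il6st and Il10ra, overlapped in their sample ranges there. With nApoE4, Ifnar2 moved from the fifth place to the third at 26.6 ± 0.54 CPM per kilobase (from 5 to 4 with the longest transcript) and Il6st from the sixth to the eighth at 6.59 ± 0.12 (from 6 to 7). In the nApoE3 experiment Il10ra was eighth in controls and treated samples, at 3.55 ± 0.39 and 6.05 ± 0.27 CPM per kilobase. With nApoE3, Il10rb and Ifngr2 were at 41.1 ± 0.22 and 39.9 ± 0.44 CPM per kilobase, and with the longest transcript at 56.1 and 40.6. Ifngr2 was second in every group by all exon bases, but at places 4, 3, 3 and 2 in the nApoE4 controls, nApoE4, the nApoE3 controls and nApoE3 by the longest transcript, and 20 of the 36 places were unchanged.

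**Figure D4:**
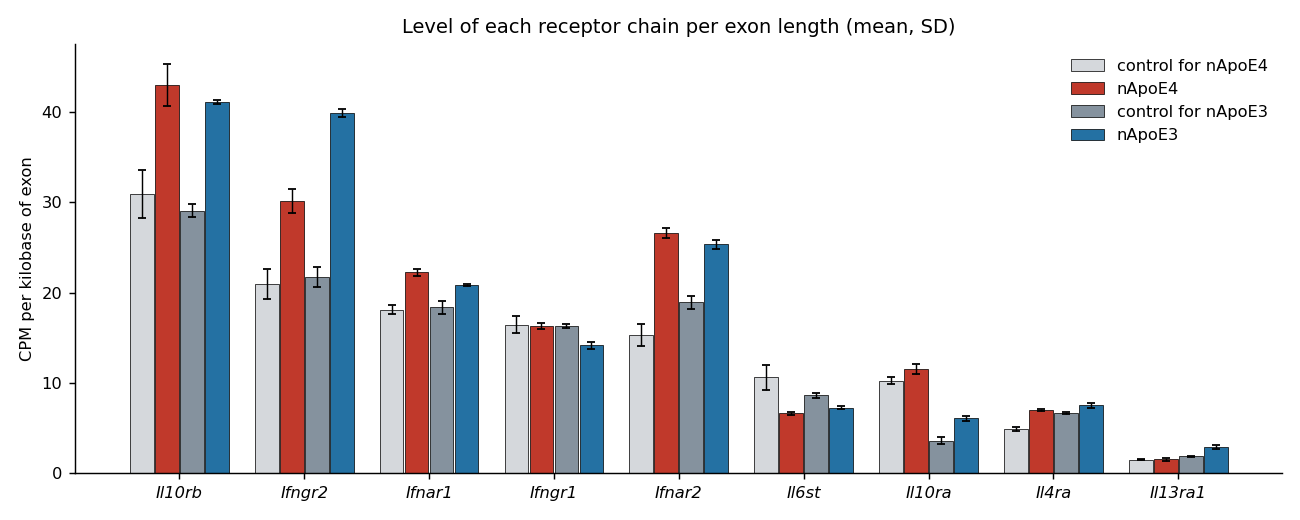
Mean level of each chain in CPM per kilobase of exon (y axis from 0) in the 4 groups, with SD as bars (n = 3, 3, 3 and 2), ordered by the nApoE4 controls. Il10rb is highest and Il13ra1 lowest in every group, and Il10ra is lower in both groups of the nApoE3 experiment.

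The genes most like each chain were those of highest Pearson correlation over the 11 samples, on log2 CPM relative to the controls of the own experiment, among 8841 genes. These points share the split into treated and control samples, so no test is given. The closest were Sema4a for Ifnar1 (r = 0.985), Ctsc for Ifnar2 (0.998), Fbxo18 for Ifngr1 (0.945), M6pr for Ifngr2 (0.996), Hip1r for Il10ra (0.989), Rnf115 for Il10rb (0.995), Slc39a10 for Il6st (0.995), Cops7b for Il4ra (0.991) and Fam49b for Il13ra1 (0.976). The second closest were Atp9b, Anxa3, Ext2, Tbrg1, Slfn9, Ptpn2, Cnot6l, Mtfr1 and Scamp1, in the same order.

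Most ligands of these receptors were at 0 or near it. Of 26 ligands listed, 13 were at 0 counts in all 11 samples, among them Ifng and 4 interferon alpha genes. Of these 13, 5 (Ifnk, Il6, Ebi3, Clcf1 and Cntf) lie wholly within the span of another gene, where the way reads were assigned can leave a gene at 0. The list also holds Il19, Il20 and Il24, which signal through chains outside the 9 and held at most 7, 3 and 1 counts. Il10 was at 9 to 25 counts and did not pass the test with either fragment (adjusted p = 0.878 and 0.972). Il27, a subunit of the IL-27 cytokine that signals through IL6ST, was at 3 to 7 counts in the controls and 667 to 804 with nApoE4, a log2 fold change of 7.48 (adjusted p = 2.43e-09). With nApoE3 it went from 7 to 10 counts to 501 to 626, a log2 fold change of 6.13 (adjusted p = 1.50e-11), and the responses differed by 1.35 (adjusted p = 0.0343). Osm, oncostatin M, another ligand of IL6ST, rose from 12.9 ± 1.08 to 30.9 ± 1.16 CPM with nApoE4 (SD, n = 3 each) and from 10.3 ± 0.28 to 45.6 ± 1.58 CPM with nApoE3 (SD, n = 3 and 2). Its log2 fold changes were 1.27 and 2.15 (adjusted p = 5.39e-07 and 5.96e-13), and the nApoE4 response was smaller by -0.89 (adjusted p = 1.21e-05). Ifnb1, the type I interferon that binds IFNAR, was at 0 to 2 counts in the controls and 30 to 50 with nApoE4 (adjusted p = 2.43e-05), and at 3 to 9 and 72 to 75 counts in the nApoE3 experiment (adjusted p = 1.11e-06). Its difference between the responses did not pass (adjusted p = 0.255). In all, 3 of 4 ligands tested were higher with nApoE4 and 3 of 5 with nApoE3, with medians of 3.10 and 2.15 on the log2 scale, and none was called lower. These counts and medians depend on the filter, since Ifnb1 and Il27 passed it only through their treated samples. Over all genes tested, 57.2% passed with nApoE4, 28.6% higher, and 67.7% with nApoE3, 33.1% higher. Ligands not tested against the controls went either way. Il4 went from 10 to 21 counts to 1 to 4 with nApoE4 and from 5 to 10 to 0 to 4 with nApoE3. Lif went from 2 counts to 8 to 14 and from 0 to 2 to 3 to 4.

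Among 37 other cytokine receptor chains, 22 were tested with nApoE4, of which 9 were higher and 8 lower. With nApoE3, 19 were tested, of which 13 were higher and 3 lower. Over all genes, 57.2% passed with nApoE4 and 67.7% with nApoE3. The median log2 fold changes of the list were 0.30 and 0.49. The largest changes with nApoE4 among those above 1 CPM in some group were Il13ra2, Il15ra and Prlr. Il13ra2, a chain that binds IL-13 and is known as a decoy, had 2 counts in each control and 67 to 83 with nApoE4 (adjusted p = 3.99e-07), and 1 to 4 and 7 to 13 counts in the nApoE3 experiment, where it was not tested on its own. The responses differed (log2 difference 3.08, adjusted p = 0.00655). Il13ra2 passed the filter only through its nApoE4 samples, so it could only be called higher there. The same holds with nApoE3 for Il23r on this list, at 0 to 5 counts in the controls and 14 to 29 with the fragment. Il15ra, which presents IL-15, rose by 2.29 and 2.22 on the log2 scale (adjusted p = 6.16e-09 and 1.11e-12). Prlr, the prolactin receptor, was at 46 to 56 counts in the controls and 7 to 13 with nApoE4 (adjusted p = 1.28e-04), and at 2 to 9 counts in the nApoE3 experiment.

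The partner chains of the 9 that lie outside them were looked at after their values were seen. Il6ra, which brings IL-6 to IL6ST, fell from 41.5 ± 4.54 to 12.8 ± 0.73 CPM with nApoE4 (SD, n = 3 each) and from 38.0 ± 0.48 to 20.1 ± 0.44 CPM with nApoE3 (SD, n = 3 and 2). Its log2 fold changes were -1.69 and -0.93 (adjusted p = 2.38e-07 and 4.57e-10), and the difference of -0.78 passed the test (adjusted p = 1.49e-04). Both chains of the IL-6 receptor were thus lower with each fragment, and fell further with nApoE4. Il2rg, the common chain that pairs with IL4RA for IL-4, rose by 0.72 and 0.52 (adjusted p = 3.92e-05 and 1.02e-08). Il27ra, which pairs with IL6ST for IL-27, was at 31 to 44 counts in the controls and 4 to 10 with nApoE4 (log2 fold change -2.30, adjusted p = 3.51e-04), and at 1 to 5 and 7 to 9 counts in the nApoE3 experiment, where it was not tested on its own. The responses differed (log2 difference -3.54, adjusted p = 0.00185). Among other partners of IL6ST, Osmr, for oncostatin M, and Cntfr held at most 3 and 4 counts, and Lifr and Il11ra1 did not pass with nApoE4 (adjusted p = 0.0584 and 0.0532) or nApoE3 (adjusted p = 0.526 and 0.125). Il22ra1 and Il20ra, partners of IL10RB, held at most 11 and 4 counts and were not tested. Ifnlr1, which pairs with IL10RB for type III interferons, was at 49 to 68 counts in the controls and 11 to 17 with nApoE4, and at 80 to 134 and 26 to 31 counts in the nApoE3 experiment, log2 fold changes of -1.89 and -1.81 (adjusted p = 1.12e-04 and 1.01e-05).

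Kinases and STAT factors below the receptors included larger changes than any of the 9 chains. Of 10 genes, 9 were tested with nApoE4, of which 5 were higher and 3 lower, and 10 with nApoE3, of which 5 were higher and 4 lower, with medians of 0.24 and 0.07 on the log2 scale. The shares of all genes that passed were 57.2% with nApoE4 and 67.7% with nApoE3. Jak2, the kinase of IFNGR2, rose from 25.8 ± 0.72 to 114 ± 3.38 CPM with nApoE4 and from 42.6 ± 0.72 to 139.7 ± 1.02 CPM with nApoE3. Tyk2, the kinase of IFNAR1 and IL10RB, rose by 1.44 and 1.16 on the log2 scale (adjusted p = 2.64e-07 and 1.92e-10). Jak1, the kinase of IFNAR2, IFNGR1, IL10RA and IL4RA, did not pass with nApoE4 (log2 fold change 0.02, adjusted p = 0.801) and was higher by 0.20 with nApoE3. Stat2, a factor of the type I interferon receptor, rose by 2.27 on the log2 scale with nApoE4. With nApoE3, Stat2 went from 13.9 ± 0.48 to 84.9 ± 2.77 CPM.

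STAT factors downstream of the interleukin receptors were unlike one another. Stat3, which serves IL-10 and IL-6, rose from 46.2 ± 1.29 to 54.6 ± 2.02 CPM with nApoE4 and from 47.7 ± 0.60 to 116.6 ± 0.20 CPM with nApoE3, log2 fold changes of 0.24 and 1.28 (adjusted p = 0.00462 and 1.11e-12), with a difference of -1.05 (adjusted p = 1.67e-07). Stat6, which serves IL-4 and IL-13, fell by 0.71 and 0.27 on the log2 scale (adjusted p = 2.91e-06 and 1.94e-06). Stat5a rose with nApoE4 by 0.44 (adjusted p = 2.92e-04) and fell by 0.59 with nApoE3 (adjusted p = 4.08e-07), and the difference of 1.03 passed (adjusted p = 1.51e-06). Of the 9 genes tested for a difference, 6 passed, 2 higher and 4 lower, where 28.3% of all genes passed.

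**Figure D5:**
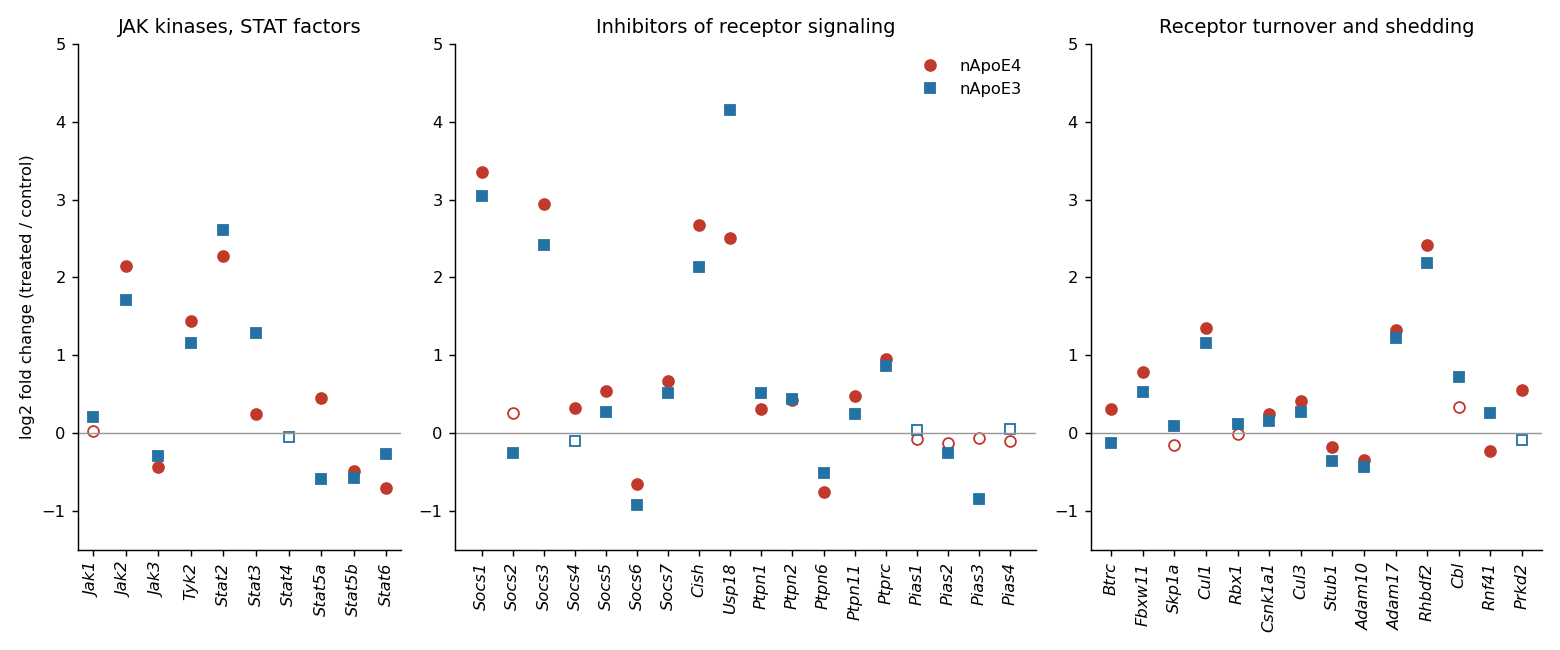
Log2 fold change against the own controls (y axis, shared range) for the kinases and STAT factors, the inhibitors of receptor signaling and the genes of receptor turnover, with circles for nApoE4 and squares for nApoE3. Filled symbols passed an adjusted p-value under 0.05. Stat5a is the one kinase or STAT gene with filled symbols on opposite sides of 0.

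Inhibitors of receptor signaling also included changes larger than those of the chains. Of 18 genes tested, 11 were higher and 2 lower with nApoE4, and 10 were higher and 5 lower with nApoE3, with median log2 fold changes of 0.38 and 0.26. Over all genes tested, 57.2% passed with nApoE4 and 67.7% with nApoE3. Socs1, an inhibitor of interferon receptor kinases, rose by 3.35 and 3.05 on the log2 scale (adjusted p = 3.60e-07 and 5.72e-07) from 13 to 31 counts in the controls. Socs3, which binds IL6ST, rose from 13.6 ± 1.20 to 104 ± 4.23 CPM with nApoE4 and from 13.2 ± 0.57 to 70.4 ± 6.24 CPM with nApoE3. Cish rose by 2.67 and 2.14. Of 14 genes of receptor turnover and shedding, 8 were higher and 3 lower with nApoE4, and 10 and 3 with nApoE3, with medians of 0.32 and 0.21. Rhbdf2 and Adam17, a partner protein and the protease that sheds IL6RA and other receptors, rose by 2.42 and 1.32 with nApoE4 and by 2.19 and 1.22 with nApoE3, and Cul1, a ubiquitin ligase scaffold, rose by 1.36 and 1.15.

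Known targets of the receptors were counted beside them. Of 13 type I interferon targets tested, all 13 were higher with each fragment, and of 12 interferon gamma targets 11 were higher and 1, the transcription factor Irf8, was lower with each. Their median log2 fold changes were 5.18 and 5.45 for the type I targets and 3.04 and 3.69 for the gamma targets. Ifi44 and Iigp1 were at 0 counts in every nApoE4 control, and with these set against 3 counts a sample the nApoE4 medians were 5.02 and 2.97. These genes, and Isg15 at 0 to 2 counts in the same controls, passed the filter only through their nApoE4 samples, so they could only be called higher. The same holds, among others, for Gbp5 and Ciita, at 5 to 6 and 2 to 5 counts in the nApoE4 controls. With nApoE3 it holds for Isg15, Ifi44 and Cxcl9, at 0 to 1, 4 to 10 and 0 to 1 counts in the controls. The counts of targets called higher are thus partly set by the filter with both fragments. Over all genes tested, 57.2% passed with nApoE4, 28.6% higher, and 67.7% with nApoE3, 33.1% higher. Rsad2, an antiviral enzyme, rose from 1.09 ± 0.15 to 117 ± 5.40 CPM with nApoE4 and from 5.87 ± 1.94 to 901 ± 44.6 CPM with nApoE3, and Gbp2, a guanylate binding protein, from 1.43 ± 0.076 to 304 ± 15.8 CPM and from 1.58 ± 0.26 to 260.2 ± 18.0 CPM. Targets of IL-10 and IL-6 were higher for 12 of 14 with each fragment, and 1 was lower with nApoE4 and 2 with nApoE3, with medians of 1.08 and 1.34. Il1rn, the IL-1 receptor antagonist, rose by 3.66 and 4.61 on the log2 scale. Targets of IL-4 and IL-13 were mixed, with 5 higher and 3 lower of 9 tested with nApoE4 and 5 higher and 4 lower of 10 with nApoE3, and medians of 0.85 and 0.19. Ccl22, a chemokine, went from 2 to 4 counts to 95 to 157 with nApoE4 and from 1 count to 23 to 30 with nApoE3 (adjusted p = 7.70e-07 and 5.00e-06). Ccl22 passed the filter only through its treated samples, so it could only be called higher. Myc, a growth regulator, rose by 3.63 and 3.51 on the log2 scale. Many of these targets also answer to other signals, and Usp18, Socs3 and Cish stand in more than 1 of the lists.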

How the data were processed

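RNA was measured in 11 BV2 samples. The authors trimmed reads with Trim Galore (0.5.0), assessed them with FastQC (0.11.8), aligned them to GRCm38.p6 with HISAT2 (2.1.0) and deposited raw counts per gene from HTSeq (0.11.0), without normalization. The annotation release, the strand setting and the overlap mode are not given in the sources used here. Of all reads tallied, 76.0 to 77.7% were counted on genes, and the tallies of reads on no gene were left out of library sizes. Groups came from the sample labels.

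Counts were fitted with edgeR (4.0.16) in R (4.3.3), using filterByExpr, TMM factors and quasi-likelihood F tests, adjusted by Benjamini-Hochberg over all genes tested at 0.05. An SE is approximate, |log2 fold change|/√F. CPM uses TMM factors over the 11 samples, and intervals cover 95%. Contrasts were treated samples against the controls of the same experiment, the interaction of both, and control against control. A level of 3 counts covers counting error only. Lengths, positions and promoters came from GENCODE and RefSeq for GRCm38.p6. Scripts were tested on simulated counts with 200 changed genes. Unchanged genes made up 10.4% of the calls for nApoE4, 7.77% for nApoE3, 5.42% for the difference and 9.71% between controls. Of 1.5-fold changes, 84, 94, 70 and 89% were recovered, in the same order. Adjusted p-values near 0.05 should be read with this in mind. All 9 chains are named, with up to 3 genes per list by the largest nApoE4 response among those called with at least 1 CPM, the ligand and kinase lists in full where told, and other genes as stated. Members, lists and tests were chosen with earlier results of these data known. One listed interferon target, Mx2, was not found under that symbol, and 1 listed gene is not reported here. Alternatives were DESeq2 (1.42.0), its size factors, other filters, a test against 1.5-fold, a replicate block, 1 fit of all samples, other lengths, leaving out each sample and, added later, total counts.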

Additional observations from a re-analysis of the deposited data

Results flagged for a closer look

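The responses to the fragments differed by the interaction test for 6 receptor chains. On the log2 scale, as nApoE4 response minus nApoE3 response, the difference was 0.37 for Ifnar2, -0.36 for Ifngr2, -0.61 for Il10ra, -0.44 for Il6st, 0.34 for Il4ra and -0.57 for Il13ra1. The controls of the experiments differed for 5 of these 6, all but Ifngr2, and experiment and fragment cannot be told apart. Over all genes tested, 28.3% passed the interaction test and 69.3% differed between the controls.

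The same test passed for ligands, partner chains and signaling genes around them. It gave 1.35 for Il27, -0.89 for Osm, -0.78 for Il6ra, -3.54 for Il27ra and 3.08 for Il13ra2. Among kinases and STAT factors it gave -0.19 for Jak1, 0.43 for Jak2, -0.35 for Stat2, -1.05 for Stat3, 1.03 for Stat5a and -0.45 for Stat6. In Il13ra2 the control groups held 1 to 4 counts a sample, and in Il27ra the nApoE3 controls held 1 to 5, so the sizes of these differences are poorly determined.

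Chain ratios moved in opposite directions in the experiments, with every treated sample on one side of its controls. The log2 ratio of Il10ra to Il10rb changed by -0.32 with nApoE4 and by 0.27 with nApoE3, and that of Il4ra to Il13ra1 by 0.46 and -0.45. The difference between the experiments was not tested for these ratios.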

How the results depend on the processing

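Against a fold change of 1.5 in place of no change, 1 chain was called with nApoE4 (Ifnar2), 2 with nApoE3 (Ifngr2 and Il10ra), 0 for the difference and 1 between the controls (Il10ra), and the genes called over all fell from 8145 to 2881, from 10034 to 2983, from 4331 to 661 and from 9879 to 3423. Replicate numbers did not pair the samples, since same-numbered samples had residuals that correlated at -0.338 to -0.002. With a replicate block, 3 chains were called for the difference (all genes, 2307), Ifnar2, Ifngr2 and Il6st being lost (adjusted p = 0.0664, 0.0568 and 0.0698), and Il10ra was lost with nApoE4 (adjusted p = 0.122). Leaving out each sample gave 6 to 7 chains with nApoE4, 9 to 9 with nApoE3, 5 to 7 for the difference and 4 to 5 between the controls. The longest transcript kept 20 of 36 places in the order of levels.

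Signs changed only near 0, in values that passed no test. Ifngr1 with nApoE4 was 9.79e-04 when genes under 10 counts in any sample were dropped and ran from -0.0568 to 0.0171 when each sample was left out. Il13ra1 with nApoE4 was -0.0302 with total counts and -0.0102 to 0.101 with each sample left out. The difference for Il10rb was 0.0122 without a filter, 0.0315 with total counts and -0.0679 to 0.0508 with each sample left out. Between the controls, Ifnar1 was 0.00134 with the minimum of 10 counts, 0.0372 with total counts and -0.0364 to 0.0216 with each sample left out. There, Ifngr1 ran from -0.00305 to 0.0711, and Ifngr2 was 0.0069 with total counts and -0.102 to 0.00946 with each sample left out. Apart from the 1.5-fold test and leaving out samples, 214 of 234 gene values kept direction and call. The cause of the lost calls was not tested, except that the 1.5-fold test asks for a larger change. The depth limits Ifnb1, Il13ra2 and other genes near 3 counts, while the 9 chains held at least 217 counts in every sample.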
